A study of Mus musculus with 4 samples.

Results

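The genes of the SLAM receptor family lie side by side on mouse chromosome 1, and DNA methylation reads were examined over 7 of them, Cd244a, Ly9, Slamf7, Cd48, Slamf1, Cd84 and Slamf6. They were taken by name, each as its annotated span with 1000 bp on either side, and they are 7 of the 9573 protein-coding genes in the range of the table used here. SLAM receptors are cell surface proteins of the immunoglobulin superfamily on blood cells. Most bind the same receptor on the opposite cell, and their tails recruit the small adaptor SAP, encoded by Sh2d1a, and through it the kinase Fyn. NKT (natural killer T) cells, which see lipids held by CD1d, are selected in the thymus by contacts between thymocytes in which Slamf1 and Slamf6 signal through SAP, and that signal is needed for the rise of PLZF, the transcription factor that gives NKT cells their effector program. 5-methylcytosine at CpG dinucleotides is the main form of DNA methylation in mammals and is often low at promoters of active genes.

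NKT thymocytes were sorted by CD1-tetramer binding from mice named PLZFon and from wild-type (WT) mice, all C57BL/6, and their sonicated DNA was sequenced after pull-down with an antibody against 5-methylcytosine (MeDIP) and without it (input). The 4 groups were therefore PLZFon MeDIP, WT MeDIP, PLZFon input and WT input, with 1 library each. What the PLZFon allele is, the age and sex of the mice and the number pooled are not stated in the labels. The series title names the acetylation of PLZF and NKT cell differentiation as its subject.

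With 1 library per group no difference had a replicate check, and no test of genotype was possible. Each 95% interval is an exact binomial (Clopper-Pearson) interval that covers counting error only. The libraries held 10633609 (PLZFon MeDIP), 15141449 (WT MeDIP), 50374582 (PLZFon input) and 60683046 (WT input) reads. The antibody label names none for PLZFon MeDIP and an antibody for WT input, against the titles by which the libraries were grouped. Over all 1048575 listed windows of 100 bp, MeDIP reads at equal depth were 4.22 times the input in PLZFon and 4.44 times in WT cells, and the PLZFon over WT MeDIP ratio was 0.964 (0.963 to 0.966). In DNA from a cell population, full methylation in some cells and partial methylation in all cannot be told apart. Expression was not measured, so the sorted cell type could not be checked against its markers.

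The 7 genes span chr1:171558718-171948958 (mm10), 390.2 kb, in the order Cd244a, Ly9, Slamf7, Cd48, Slamf1, Cd84 and Slamf6. The gaps between neighbours ran from 3.30 kb (Cd244a to Ly9) to 61.9 kb (Cd48 to Slamf1). The RefSeq promoter sequences (GRCm38.p6, 250 bp before to 50 bp after the gene start) of 6 of the 7 genes held between 1 and 7 CG dinucleotides in 300 bp, against a median of 7 (quartiles 3 and 20) over 32851 promoters, of which 94.6% held at least 1. The motif searched was CG, which reads the same on both strands. The promoter of Slamf1 is shown because, among listed windows within 1000 bp of these starts, the one with the lowest PLZFon over WT ratio lies just downstream of it, and those of Slamf6 and Cd48 because they hold the fewest and the most CG among the 6. All run 5′ to 3′ on the plus strand, with each CG in capitals. They are Slamf1 at chr1:171766882-171767181, Slamf6 at chr1:171917212-171917511 and Cd48 at chr1:171681742-171682041.
Slamf1: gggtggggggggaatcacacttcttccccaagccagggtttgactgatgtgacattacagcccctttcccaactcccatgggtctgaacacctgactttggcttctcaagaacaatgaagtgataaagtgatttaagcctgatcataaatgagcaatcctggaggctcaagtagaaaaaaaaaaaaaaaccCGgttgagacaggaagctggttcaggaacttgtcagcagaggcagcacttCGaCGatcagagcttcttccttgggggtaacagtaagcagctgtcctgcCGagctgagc
Slamf6: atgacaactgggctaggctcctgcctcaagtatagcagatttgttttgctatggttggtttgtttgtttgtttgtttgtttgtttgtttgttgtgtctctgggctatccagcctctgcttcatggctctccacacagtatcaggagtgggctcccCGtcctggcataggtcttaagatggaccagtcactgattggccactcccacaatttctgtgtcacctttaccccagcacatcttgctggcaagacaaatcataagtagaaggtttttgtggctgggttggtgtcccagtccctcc
Cd48: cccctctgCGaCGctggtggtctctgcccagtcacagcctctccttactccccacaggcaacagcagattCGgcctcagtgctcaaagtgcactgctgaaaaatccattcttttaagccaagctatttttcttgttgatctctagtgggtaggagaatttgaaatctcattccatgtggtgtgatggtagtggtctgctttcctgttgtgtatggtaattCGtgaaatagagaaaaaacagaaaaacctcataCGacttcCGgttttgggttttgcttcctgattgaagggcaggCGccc

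The Slamf1 promoter held 4 CG, and Slamf7 and Cd84 held 3 each and Cd244a 2. As many CG or more stood in 68.6% of all promoters for Slamf1, in 94.6% for Slamf6 and in 52.1% for Cd48. None of these 6 promoters contained a listed window, and 15.7% of 15043 promoters in the range did. Only windows with 10 or more MeDIP reads (both libraries combined) and at least 1 CG were listed, so an absent window is not one without reads. In Cd244a, Slamf1, Cd84 and Slamf6, 1 of the 2 whole windows in the promoter held no CG and could not be listed. Within 1000 bp of the start, Cd244a had 2 listed windows, Slamf1 had 3 and the other 4 genes had none. At least 1 was found for 46.9% of promoters. With 6 genes, neither count can be told from the background share.

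Few positions of the cluster were listed. Its loci held 203 listed windows among 2213 positions of 100 bp (9.17%). The listed share of 6 of the 7 genes lay below the median of 15.0% over 7668 protein-coding loci (those with 20 reads or more). Positions without a CG were counted too, though they cannot be listed, so the share does not separate few CG from few reads. Slamf7 was the exception at 17.2%, and Cd48 had the lowest share at 4.98%. The windows that were listed also carried few CpG. Their mean CpG number was below the loci median of 2.28 in 5 of 7 genes, from 1.59 in Slamf6 to 2.64 in Ly9. Windows with a single CpG made up 45.8% of those in the cluster and 33.6% of all listed windows.

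Together the 7 loci held 454 PLZFon reads and 685 WT reads after pull-down. Scaled to library totals this was a PLZFon over WT ratio of 0.945 (0.837 to 1.07), beside an input ratio of 1.02 (0.901 to 1.15). No member passed the 2-fold rule, which 0.443% of the 7668 loci passed. That rule asks for 20 reads or more in the MeDIP libraries combined, a ratio of 2 or more up or down, and an interval that leaves out equality. The interval of every member contained equality, while it excluded equality in 6.25% of loci. The median log2 ratio of the members was 0.03 and that of the loci was -0.06, and all 7 members lay between the 5th and 95th percentiles of the loci. The wide intervals of the thinly covered genes limit what could be detected: a locus such as Cd48 could differ by up to 1.66-fold upward or lie at 0.552 of WT within its interval.

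**Figure D1:**
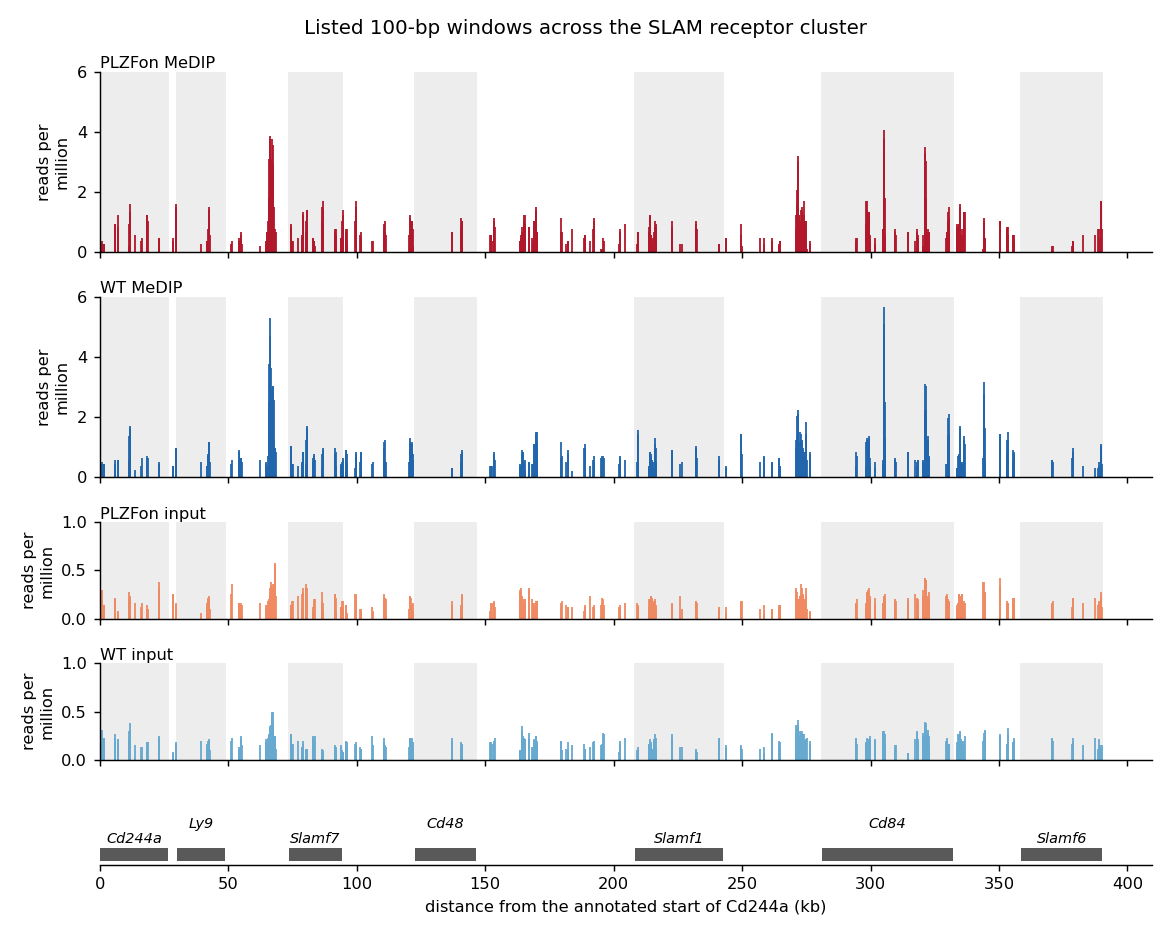
RPM per listed 100-bp window (reads scaled to the library total; vertical axes, MeDIP on one scale and input on another) against the distance in kb from the annotated start of Cd244a, for the PLZFon MeDIP, WT MeDIP, PLZFon input and WT input libraries. Grey bands and dark bars mark the SLAM genes. The tallest MeDIP windows stand between Ly9 and Slamf7 and inside Cd84, in both genotypes. Between Ly9 and Slamf7, the window with the most MeDIP reads had input RPM of 0.218 (PLZFon) and 0.346 (WT). Its group also held the highest input counts between the loci, 29 (PLZFon) and 30 (WT).

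Slamf1 (CD150), the homophilic receptor that gives the family its name, lies at chr1:171767131-171801184. It held 62.8 PLZFon reads against 106 WT reads after pull-down, and 68.8 PLZFon reads against 89.5 WT reads in the inputs. Its MeDIP ratio was thus 0.841 (0.605 to 1.16), beside 0.925 (0.666 to 1.28) for the inputs. Slamf1 had the lowest MeDIP ratio of the 7 members, with 19.1% of loci below it. Slamf1 was also the member with most of its windows early, 24 of 36 when the gene is cut into 3 equal parts.

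The windows nearest the Slamf1 start included the only Slamf1 window past the 2-fold rule. They form a group of adjoining windows, chr1:171767801-171768300, that begins 0.719 kb after the start (to the centre of its first window). Its window with the most reads, chr1:171768001-171768100 with 1 CpG, held 7 PLZFon and 24 WT reads after pull-down, with 7 PLZFon and 6 WT reads in the inputs. The ratio there was 0.415 (0.151 to 0.993), which passes the 2-fold rule by a small margin: with TMM factors in place of library totals it was 0.430 (0.157 to 1.03) and did not pass. Its neighbour at chr1:171768101-171768200 had 7 PLZFon and 22 WT reads and a ratio of 0.453 (0.163 to 1.10), which does not pass. The window sums of the group, divided by 4, came to 5.5 PLZFon and 18 WT reads, giving 0.435 (0.134 to 1.18). These are fewer reads than its strongest window alone held. The interval is therefore too wide and does not settle whether the group as a whole differed. In the authors' deposited table the p-value of the window with the most reads was 0.0616 and its adjusted p-value 1. The 12 windows of chr1:171772501-171773700, which held 30.6% of the Slamf1 MeDIP reads, had a ratio of 1.05 (0.578 to 1.89). Low ratios were not confined to the start: the last group, chr1:171799501-171799800, stood at 0.458 (0.0548 to 2.27) from 2.25 PLZFon and 7 WT reads, and all 8 Slamf1 groups had intervals containing equality.

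Slamf6 (Ly108), the second SLAM receptor that acts with SAP in NKT cell selection, lies at chr1:171917458-171948958. It held 30 PLZFon reads against 41.8 WT reads after pull-down, and 38 PLZFon reads against 44 WT reads in the inputs, a MeDIP ratio of 1.02 (0.618 to 1.68). That even ratio joins parts of the gene that differ in direction. The first listed window lies 12.0 kb after the start. The first 2 groups of windows, chr1:171929401-171929700 and chr1:171937001-171937600, had ratios of 0.274 (0.0111 to 1.91) and 0.378 (0.0743 to 1.35), from 1.25 PLZFon against 6.5 WT reads and from 3.25 PLZFon against 12.25 WT reads. The other 4 groups all lay above equality, up to 1.71. The group with the most reads, chr1:171948201-171948700 at the 3′ end, stood at 1.58 (0.751 to 3.37). Its window sums divided by 4 were 17.25 PLZFon and 15.5 WT reads. Its strongest window, chr1:171948301-171948400, had 18 PLZFon and 17 WT reads, with 14 PLZFon and 7 WT reads in the inputs, so the input reads there were also more numerous in PLZFon. None of the 6 groups had an interval excluding equality, but in groups of few windows the division by 4 understates the reads and widens the interval. Restricting Slamf6 to windows with at least 20 MeDIP reads left only 29 reads and moved its ratio to 1.58 (0.711 to 3.54).

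Cd84, a homophilic receptor of B cells, T cells and platelets, was the largest and most deeply covered member, at chr1:171839697-171890718. It held 177 PLZFon reads against 285 WT reads after pull-down, and 174 PLZFon reads against 194 WT reads in the inputs. The MeDIP reads gave a ratio of 0.885 (0.730 to 1.07), the inputs one of 1.08 (0.876 to 1.33). Its first listed window lay 13.5 kb after the start, and of its 60 windows 29 lay in the middle and 28 in the last of 3 equal parts of the gene.

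Cd84 held the window with the most MeDIP reads of all 7 genes. The window chr1:171864001-171864100, with 6 CpG, had 43 PLZFon and 86 WT reads after pull-down and 11 PLZFon and 18 WT reads in the inputs. In depth-scaled reads (RPM) this was 4.04 in PLZFon and 5.68 in WT, a ratio of 0.712 (0.482 to 1.04). The 8 windows of its group, chr1:171863501-171864400, held 30.0% of the MeDIP reads over Cd84 and had a ratio of 0.747 (0.515 to 1.07), so that PLZFon was lower but not beyond counting error. A lncRNA gene, Gm51686, overlaps this group and lies inside Cd84, at chr1:171864350-171873368. The second strong group, chr1:171879701-171881500, had a ratio of 0.972 (0.662 to 1.42) over 13 windows and a further one, chr1:171857001-171858500, had 1.09 (0.682 to 1.72).

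A single Cd84 window passed the 2-fold rule. At chr1:171880301-171880400, with 2 CpG, there were 4 PLZFon and 19 WT reads after pull-down against 17 PLZFon and 14 WT reads in the inputs, a MeDIP ratio of 0.300 (0.0742 to 0.902). The authors' deposited table gives this window a p-value of 0.0267, the lowest among all member windows, and an adjusted p-value of 1. It sits inside the second strong group, whose summed reads were nearly even.

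Ly9 (CD229), a further homophilic receptor of T and B cells, lies at chr1:171588613-171607410. It held 32 PLZFon reads against 44 WT reads after pull-down, and 26 PLZFon reads against 33.8 WT reads in the inputs, a MeDIP ratio of 1.04 (0.636 to 1.67). Its 14 windows had the highest mean CpG number of the cluster, and 10 of them form one group, chr1:171600201-171601500, with 67.1% of its MeDIP reads. The strongest Ly9 window, chr1:171601201-171601300, had 16 PLZFon and 18 WT reads, with 7 PLZFon and 8 WT reads in the inputs. Just outside the annotated span, chr1:171588201-171588500 had window sums divided by 4 of 11.75 PLZFon and 10.5 WT reads, that is 1.59 times at equal depth (0.634 to 4.06).

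Cd48 and Cd244a encode a binding pair, the lipid-anchored ligand CD48 and the NK cell receptor 2B4. Cd48, at chr1:171681245-171705258, held 24.3 PLZFon reads against 35.8 WT reads after pull-down, and 25.5 PLZFon reads against 32.3 WT reads in the inputs, a MeDIP ratio of 0.966 (0.552 to 1.66). It had the fewest windows, 13, of which 5 lay upstream of the gene and none in the first of 3 equal parts of it. The strongest, chr1:171680201-171680300, was upstream and had 11 PLZFon and 18 WT reads, with 7 PLZFon and 9 WT reads in the inputs. Cd244a, at chr1:171558718-171585316, held 48.8 PLZFon reads against 64.3 WT reads after pull-down, and 57.8 PLZFon reads against 83.3 WT reads in the inputs. It had the highest MeDIP ratio of the cluster, 1.08 (0.729 to 1.59), beside the lowest input ratio, 0.836 (0.587 to 1.18). Its strongest window, chr1:171570401-171570500, was close to even, with 17 PLZFon and 25 WT reads and 0.968 at equal depth (0.491 to 1.87).

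Slamf7 (CRACC), a homophilic receptor of NK cells and plasma cells that lies at chr1:171632403-171653037 on the minus strand, held 79.5 PLZFon reads against 108 WT reads after pull-down, a ratio of 1.05 (0.775 to 1.41). Its inputs held 86.8 PLZFon and 86.8 WT reads, which at equal depth is the highest input ratio of the cluster, 1.20 (0.884 to 1.64). The strongest window, chr1:171639201-171639300, had 15 PLZFon and 26 WT reads after pull-down but 16 PLZFon and 5 WT reads in the inputs. By the same 2-fold rule applied to the inputs, 3 of the 39 listed Slamf7 windows were higher and 1 lower in PLZFon. No input window of the other members passed, while 7 of the 229 windows between the loci were higher and 1 lower. Of all input windows with at least 20 reads 3.36% passed, but the Slamf7 windows with that many input reads were not counted, and adjoining windows share reads. Slamf7 therefore showed input differences of the size by which single MeDIP windows were called.

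**Figure D2:**
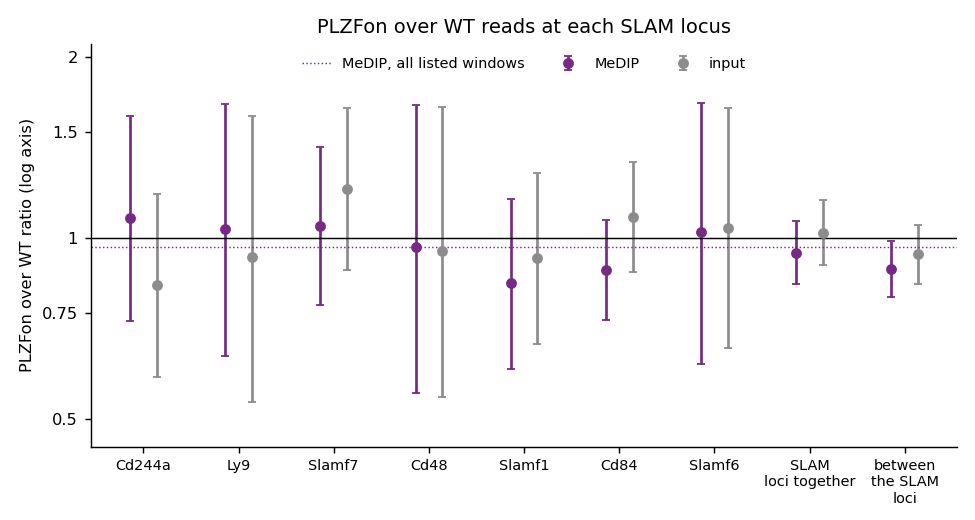
PLZFon over WT ratio of depth-scaled reads (vertical log axis) for each SLAM locus, the 7 together and the windows between them; purple points are MeDIP, grey points input, bars are exact 95% intervals for counting error, and the dotted line is the MeDIP ratio of all listed windows. All 7 members' MeDIP intervals cross equality, from Slamf1 at 0.841 to Cd244a at 1.08, and only the windows between the loci have an interval below it.

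Window by window, 89 of the 203 member windows had at least 20 reads, and 2 of them, those of Slamf1 and Cd84, were lower in PLZFon by the 2-fold rule. No member window was higher at this read minimum. With all 203 windows admitted, 1 was higher, chr1:171645201-171645300 in Slamf7, with 11 PLZFon and 5 WT reads and a ratio of 3.13 (1.00341 to 11.5), where the inputs held 14 PLZFon and 5 WT reads. Of all listed windows with 20 reads or more, 3.3% passed in either direction, 1.13% higher and 2.17% lower, so a count of 2 in 89 is near the background. The authors' deposited table gives, for 4 of the 203 windows, a p-value under 0.05, which is 1.97%, against 3.31% of all windows. The lowest adjusted p-value among the 203 in the authors' deposited table was 1, and 0.0144% of all windows had one under 0.05. Joined into 49 groups of adjoining windows (starts at most 400 bp apart), 28 groups lay below equality and 21 above. That is 57.1% below, against 53.6% of the 122223 groups in all protein-coding loci. Of the 21 groups with at least 20 reads none passed the rule, which 1.89% of 79826 such groups over all listed windows passed. None had an interval excluding equality, against 3.19% of those 79826.

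MeDIP reads at equal depth outnumbered input reads at every member in both genotypes. Over the 7 loci MeDIP reads were 4.51 times (3.96 to 5.14) the input in PLZFon and 4.87 times (4.35 to 5.46) in WT cells. Since windows were listed by their MeDIP reads, this selection favours values above 1, and these values do not settle the conflict between the antibody label and the titles. In PLZFon cells the members ran from 3.74 times (Slamf6) to 5.83 times (Ly9), and in WT cells from 3.09 times (Cd244a) to 5.89 times (Cd84).

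The order of the members was uncertain. Among 21 pairs of members, none differed in PLZFon MeDIP over input and none in the PLZFon over WT ratio, judged by whether an approximate log-normal 95% interval of the quotient excluded 1, with no adjustment for the number of pairs. In WT cells 3 pairs did, all with Cd244a lower: its value was 0.525 (0.362 to 0.763) of that of Cd84, 0.620 (0.403 to 0.954) of that of Slamf7 and 0.650 (0.423 to 0.9995) of that of Slamf1. Cd244a was not set apart in this way in PLZFon cells, where its value was 3.999 times the input (2.67 to 5.96), against 3.09 (2.20 to 4.33) in WT cells, and the difference between the genotypes was not tested.

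**Figure D3:**
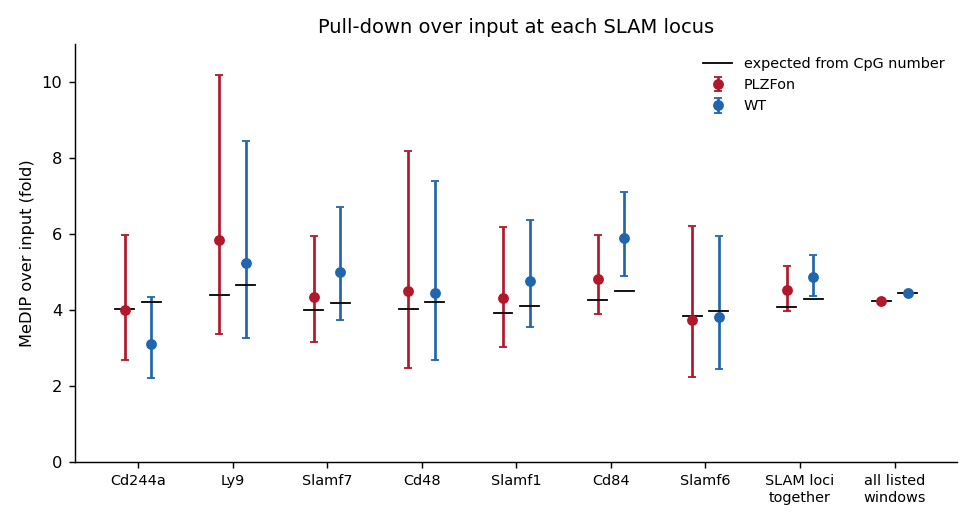
MeDIP over input at equal depth (vertical axis, fold) for each SLAM locus, the 7 together and all listed windows, PLZFon in red left of WT in blue. Bars are exact 95% intervals for counting error and black dashes the value that all listed windows of the same CpG number would give; Ly9 in PLZFon cells at 5.83 and Cd84 in WT cells at 5.89 stand well above their dashes, with the interval of Cd84 clear of it, and Cd244a in WT cells is below its dash at 3.09.

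MeDIP over input was also set against the value that all listed windows of equal CpG number would give. In PLZFon cells the interval of every member contained that value, and in WT cells Cd84 alone lay above it, with an interval of 4.89 to 7.11 against 4.48. For the 7 together the value those windows would give was 4.08 in PLZFon, inside the interval of the observed 4.51, and 4.28 in WT cells, just below the interval of the observed 4.87. The observed value over that expected had a median of 1.10 in PLZFon and 1.12 in WT cells, against loci medians of 0.949 in PLZFon and 0.951 in WT cells. It was above the loci median in 7 of 7 members in PLZFon and in 6 of 7 in WT cells, where Cd244a was at 0.734, and all lay between the 5th and 95th percentiles of the loci. The authors' relative methylation score averaged 0.591 in PLZFon and 0.653 in WT cells over the member windows, beside 0.570 in PLZFon and 0.625 in WT cells over all listed windows. The score followed unscaled reads: chr1:171565601-171565700, with 9 reads in each library, scored 0.71 in both. It also fell with CpG number: at 10 PLZFon reads 1 window with 1 CpG scored 0.72 and 1 with 2 CpG scored 0.61. The averages were not adjusted for depth or CpG number, so neither gap can be read as a difference in methylation.

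By CpG number, MeDIP over input in the cluster was highest in windows with 4 or more CpG, at 6.58 times (4.67 to 9.31) in PLZFon and 6.95 times (5.18 to 9.38) in WT cells. For all listed windows of that class it was 5.56 in PLZFon and 6.00 in WT cells. With 1 CpG the cluster stood at 4.64 (3.78 to 5.70) in PLZFon and 4.26 (3.58 to 5.07) in WT cells, against 3.57 in PLZFon and 3.68 in WT cells over all listed windows. With 2 CpG it was 3.45 (2.62 to 4.53) in PLZFon and 4.57 (3.61 to 5.81) in WT cells, so that in PLZFon the steps were not in order of CpG number, within wide intervals. The PLZFon over WT MeDIP ratio of these classes lay between 0.885 and 0.999, each with an interval containing equality.

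**Figure D4:**
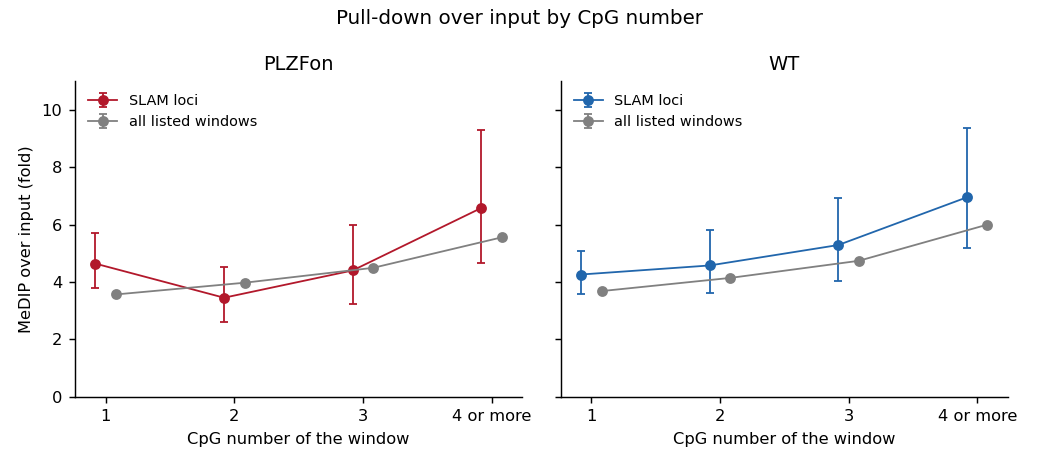
MeDIP over input at equal depth (vertical axis, fold) against the CpG number of the window, for PLZFon (left, red) and WT (right, blue) with all listed windows in grey; bars are exact 95% intervals for counting error. In WT cells the SLAM windows climb to 6.95 at 4 or more CpG, while in PLZFon cells the value at 2 CpG, 3.45, lies under that at 1 CpG, 4.64.

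The DNA between the 7 loci was read as a comparison. Its 229 listed windows covered 13.4% of positions, more than the genes, and had a PLZFon over WT ratio of 0.889 (0.798 to 0.990) with an input ratio of 0.940 (0.839 to 1.05). Scaled to library totals, the interval excluded equality only with the windows over the pseudogene Gm52945. Without them the ratio was 0.922 (0.826 to 1.03), an alternative added after the values were seen. With them the interval still contained 0.964, the ratio of all listed windows, and TMM factors were not tried on these windows. The group with the most MeDIP reads in the region lies between Ly9 and Slamf7, at chr1:171623301-171627200, with 145.5 PLZFon and 246 WT reads over 31 windows. Its window chr1:171625001-171625100 had 40 PLZFon and 80 WT reads after pull-down, with 11 PLZFon and 21 WT reads in the inputs. Over that group the ratio was 0.841 (0.681 to 1.04). Its window chr1:171625201-171625300 passed the 2-fold rule, with 19 PLZFon and 55 WT reads and 0.492 (0.276 to 0.842). Of 109 windows between the loci with at least 20 reads, 7 were lower and 1 higher by that rule. Among all listed windows with that many reads, 2.17% were lower and 1.13% higher. Several of the 7 adjoin each other in Gm52945 and share reads, and chr1:171808401-171808500 stood at 0.388 (0.129 to 0.988).

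Among groups with at least 20 reads, the lowest ratio of the region stood between Cd84 and Slamf6, inside Gm52945 (chr1:171898064-171906254). The 7 windows of chr1:171902601-171903300 held 12.3 PLZFon and 50.5 WT reads after pull-down, while the inputs held 26.5 PLZFon and 26.3 WT reads. The ratio was 0.345 (0.169 to 0.654) with an input ratio of 1.22 (0.682 to 2.17), and MeDIP over input was 2.19 in PLZFon and 7.71 in WT cells. This was the only one of the 16 groups between the loci with at least 20 reads to pass the 2-fold rule. On the lower side, 1.22% of such groups over all listed windows and 0.559% of 6618 annotated loci other than protein-coding ones passed. Its window chr1:171902801-171902900, with 3 CpG, had 8 PLZFon and 42 WT reads, and in the authors' deposited table its p-value was 0.000351 and its adjusted p-value 0.538. A pseudogene can share reads with a near copy elsewhere, and that was not tested.

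**Figure D5:**
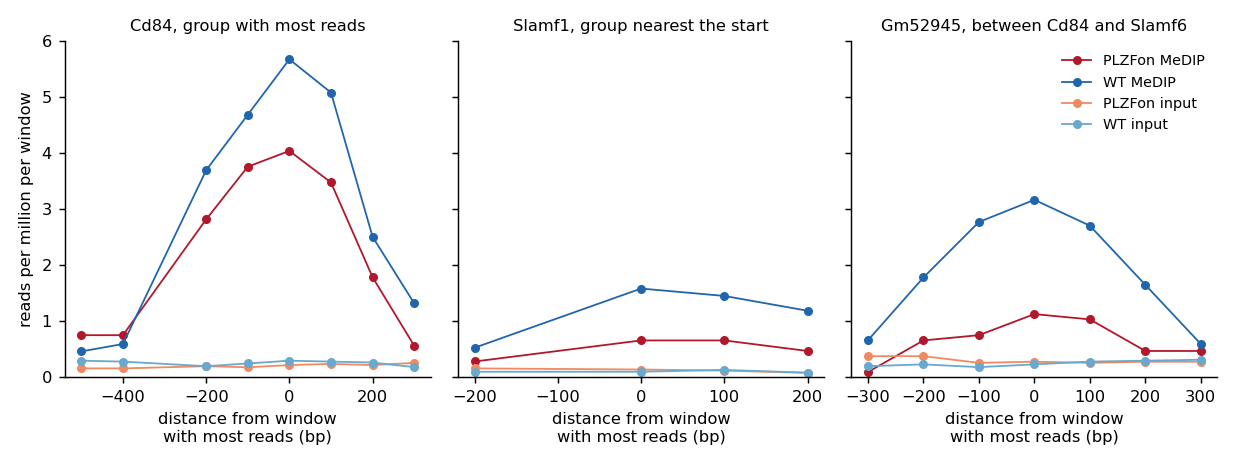
RPM per 100-bp window (vertical axis) against the distance in bp from the window with the most reads, for the strongest group of Cd84 windows, the group nearest the Slamf1 start and the group over Gm52945; red and blue are PLZFon and WT MeDIP, orange and light blue the inputs. At the centre of the Cd84 group the MeDIP libraries stand at 4.04 (PLZFon) and 5.68 (WT), at Slamf1 at 0.658 (PLZFon) and 1.59 (WT), and the inputs stay close to each other in all 3 panels.

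Other annotated genes within the span were close to even or thinly read. With at least 20 reads, the lncRNA gene Gm35200 had a ratio of 0.965 (0.387 to 2.31), the tRNA gene n-THatg1 0.893 (0.371 to 2.05) and Tma7-ps 1.32 (0.626 to 2.77). Gm51686, within Cd84, had 0.775 (0.553 to 1.08), and the microRNA gene Mir7683, within Slamf7, had 0.553 (0.186 to 1.44) in reads that also count for Slamf7. In contrast to the single group over Gm52945, these intervals all contained equality.

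Related genes outside the cluster gave no call either. Slamf9 (0.833, 0.639 to 1.08) and Slamf8 (0.768, 0.540 to 1.08), SLAM genes further along the same chromosome, and Cd2, the other receptor for CD48 (1.25, 0.536 to 2.87), did not pass the 2-fold rule. Of 14 genes for signalling below the receptors 10 lay in the range, and none of these passed, with a median log2 ratio of -0.12. Bcl10, which links antigen receptors to NF-κB, had 116 PLZFon and 122 WT reads and the largest ratio of that list, 1.36 (1.04 to 1.77), an interval above equality as in 1.24% of loci. Sh2d1b2, whose product is an adaptor of the SAP family, had the second largest shift, with 50 PLZFon and 86.3 WT reads, a quotient at equal depth of 0.825 (0.571 to 1.18). Sh2d1a, Fyn, Vav1, Csk and Zbtb16, the gene of PLZF itself, lie outside the range and were not analysed here.

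Among 3555 other protein-coding loci with at least 200 reads, those closest to the SLAM loci together in RPM per listed window, by Euclidean distance of log2 values over the 4 libraries, were Spag16 (0.019), Suclg2 (0.0391) and Myo3b (0.0437). Spag16 had 0.839 RPM per window in PLZFon MeDIP and 0.886 in WT MeDIP, while the SLAM loci had 0.842 in PLZFon MeDIP and 0.891 in WT MeDIP. Their PLZFon over WT ratios were 0.947, 0.922 and 0.943, beside 0.945 for the cluster. Each ratio is the quotient of the matched PLZFon MeDIP and WT MeDIP values, so this closeness follows from how the loci were chosen.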

How the data were processed

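MeDIP and input libraries of sorted NKT thymocytes were analysed from 1 deposited table. The submitters' processing notes name BWA, edgeR and mm10, without versions. The authors deposited raw read counts per 100-bp window for each library, and RPKM values computed from them. They also deposited a relative methylation score for each MeDIP library. A CpG score equalled the number of CG in all 2642 windows that lie inside RefSeq promoter sequences. Per the file headers, edgeR log2 fold changes and p-values were added for each window, and how they were made from single libraries is not given in the sources used here. The table ends within chromosome 7, at position 139972600.

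Library totals were recovered from counts over RPKM. Ratios are shares of these totals. Reads over a locus or group are window sums divided by 4, since fragments of 180 to 230 bp appear in about 4 windows, as checked from differences between windows at growing distance. In groups of few listed windows a fragment is caught fewer times, so the division understates the reads and widens the interval. The same holds for loci made up of such groups. Gene spans and promoter sequences came from RefSeq (GRCm38.p6, the assembly of mm10). Promoters matched for 6 of 7 members, and exon positions were not used. Analyses used Python 3.11.15, numpy 2.4.6, pandas 2.3.3, scipy 1.17.1 and edgeR 4.0.16 (TMM factors only). The 2-fold rule was tried on simulated counts of whole loci with counting error only. That simulation held no spread between pull-downs and no single windows or groups, so it does not show how the rule performs there. The members, lists and rules were chosen with earlier results of these data known. For each member, the text names the window with the most reads and any window past the rule, and the groups of adjoining windows and further windows were named after their values were seen. From the other lists it names members past the rule or the pair with the largest log2 ratios. Slamf8, Slamf9 and Cd2, the lowest ratio among the marker genes and the NK cell genes are given besides. Alternatives covered scaling, flanks, read minimums, the ratio and the counting of shared reads. Replicate errors could not be computed.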

Additional observations from a re-analysis of the deposited data

How the results depend on the processing

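The PLZFon over WT ratio of the 7 loci together ran from 0.895 to 0.980 over 14 alternatives, and neither it nor any member had an interval excluding equality under any of them. Some of the 14 could change nothing: no member window had raised input or was shared between loci. Leaving out flanks or the strongest Cd84 group also removed no window from several members. Member ranges were 0.749 to 0.893 (Slamf1), 0.941 to 1.58 (Slamf6), 0.831 to 0.950 (Cd84), 0.787 to 1.21 (Ly9), 0.712 to 1.15 (Cd48), 1.02 to 1.15 (Cd244a) and 0.978 to 1.13 (Slamf7). Of the member windows, 1 passed the 2-fold rule with TMM factors in place of 2, the Slamf1 window being lost. Over all protein-coding loci 34 passed, 106 at a ratio of 1.5, 12 with at least 50 reads, and with TMM factors 9 higher and 19 lower in place of 7 and 27; no SLAM locus passed under these settings. TMM factors over all 4 libraries, which by construction centre MeDIP on input, gave a MeDIP over input of 1.18 (PLZFon) and 1.23 (WT) for the cluster. For single genes they gave 0.976 (PLZFon) and 0.957 (WT) for Slamf6, and 0.778 for Cd244a in WT. Windows with at least 20 MeDIP reads gave 6.56 (PLZFon) and 7.30 (WT), as that choice keeps the windows pulled down most. No paired analysis was possible because each group has 1 library. Depth limits the account: 6 of 7 members have under 200 MeDIP reads by window sums divided by 4. That division understates the reads where few windows are listed. Differences between mice, between pull-downs and in PCR duplication are not covered.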

Other observations

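Marker genes of cell types were read as loci, where methylation is not expression. At least 20 reads were found for 5 of 6 T cell genes, 4 of 4 B cell genes and 2 of 4 myeloid genes, and none of these passed the 2-fold rule. The lowest ratio among them was that of Cd28, a costimulatory receptor of T cells, with 19.3 PLZFon and 43.5 WT reads, or 0.630 (0.348 to 1.10). The 4 NK cell genes Klrb1c, Klrd1, Ncr1 and Klrk1 were all in range and none reached 20 reads. Klrb1c, which encodes the NK1.1 antigen that mature NKT cells of C57BL/6 mice carry, had 3.75 PLZFon and 12.3 WT reads over its locus, or 0.436 (0.0975 to 1.47). Klrd1 lay on the other side at 1.90 (0.228 to 19.4), Ncr1 stood at 0.749 (0.199 to 2.45), and Klrk1 had no listed window. These intervals all contained equality, so no direction is given for the NK cell genes.

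Between Slamf1 and Cd84, a window at chr1:171830601-171830700 was the only one in the region past the 2-fold rule on the higher side, with 29 PLZFon and 20 WT reads, 2.06 (1.13 to 3.85) at equal depth. Its inputs held 10 PLZFon and 25 WT reads, which gives 0.482 (0.207 to 1.04). The 32 windows of its group, chr1:171829701-171834000, had a MeDIP ratio of 1.08 (0.835 to 1.40).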
